A study of Mus musculus with 18 samples.

Results

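The comparison of BRAFV600E with wild-type dendritic cells grown from mouse bone marrow rested on 6 arrays, 3 per genotype, of the 18 arrays in the series, and covered the 19752 genes whose probe sets carry 1 gene symbol, of which 15365 passed a filter on low values and were tested. All mice carried the BRAFV600E(CA-flox) allele, a conditional form of the mutant gene that Cre recombinase switches on. The mutant group (BRAF below) also carried CD11c-Cre, whose expression is driven by the promoter of the CD11c gene Itgax. The control group (WT below) was Cre-negative littermates with the same floxed allele. Marrow came from the femurs of mice aged 5 weeks, the bone marrow derived dendritic cell (BMDC) cultures were untreated, and live CD11c+CD11b+ cells were sorted. Their total RNA (Trizol) was biotin-labelled and hybridised to 1-colour gene arrays. The other 12 arrays hold CD11b+ cells of liver and both CD11b+ and CD103+ cells of lung, from unmanipulated mice aged 14 weeks, with 2 arrays per genotype and population. The labels number the replicates but name no animal or culture behind each, so p-values reflect sample-to-sample spread that may be technical. Each gene's spread was pooled over all 18 arrays, so standard errors and p-values also reflect the liver and lung arrays.

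BRAF is the kinase that links active RAS to MEK and ERK, and the V600E change keeps it active without an upstream signal. ERK then drives transcription factors of the ETS and AP-1 families and induces its own inhibitors. In Langerhans cell histiocytosis, cells of the dendritic and monocyte lineage carry such mutations and form inflammatory lesions. The series concerns how this signal affects the migration of dendritic cells, for which the receptor CCR7 guides mature cells to lymph nodes.

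The median intensity of the 6 BMDC arrays ran from 97.0 to 113.2 and their highest value from 14880 to 18210. BRAF replicate 2 (BRAF 2 below) stood apart: its log2 values had an interquartile range of 1.90, against 2.82 to 2.99 on the other 5 BMDC arrays. Among the 3842 genes with the lowest WT level, 90.8% read higher on BRAF 2 than on the mean of BRAF 1 and BRAF 3, by a median of 0.53 on the log2 scale. Of the 3842 genes with the highest WT level, 88.3% read lower there, with a median of -0.84. Results that rest on this array are given with and without it. Braf itself read 8.82, 8.63 and 8.82 (log2) on the WT arrays and 9.09, 8.5 and 8.81 on the BRAF arrays. Its log2 difference of 0.04 ± 0.25 (SE; limma adjusted p = 0.945) had the opposite sign after median centring (-0.04), without BRAF 1 (-0.10) and without WT 2 (-0.02), and the array does not tell the mutant transcript from the normal one. The genes of both sort markers were well expressed. Itgax, which encodes CD11c, averaged 12.04 ± 0.18 in WT and 11.64 ± 0.85 in BRAF cells (SD, n = 3 each), and its difference of -0.40 became 0.10 without BRAF 2. Itgam, which encodes CD11b, averaged 10.82 ± 0.17 and 11.31 ± 0.75, a difference of 0.49 ± 0.34 (adjusted p = 0.737).

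Markers of dendritic cells and of macrophages were both present. The summed intensity of 20 dendritic cell markers was 36300 to 38200 in WT and 19300 to 38300 in BRAF cells, with the lowest sum on BRAF 2, and that of 20 macrophage and monocyte markers was 36300 to 39700 and 23800 to 42400. The mean log2 level of the dendritic cell list was 9.15 to 9.23 on the WT arrays and that of the macrophage list 9.60 to 9.77. Within the dendritic cell list, members ran from Itgax and Cd74, at 12.04 and 12.78 in WT cells, down to Flt3 and Zbtb46 at 5.77 and 6.85. Neutrophil markers (16 genes) summed to 3360 to 3730 in WT and 4410 to 5690 in BRAF cells. However, 10 of the 16 had negative differences (median -0.04), and 13 did without BRAF 2 (median -0.17). Mmp8, of this list, had a mean log2 value of 10.83 in WT and 11.86 in BRAF cells (adjusted p = 0.737). The neutrophil genes Ly6g and Elane averaged 5.29 and 6.49 in WT and 5.48 and 6.43 in BRAF cells. The 6 erythroid and progenitor markers summed to 519 to 541 and 710 to 870, including Cd34 at 7.94 and 8.80 (adjusted p = 0.378). Of these 6, 5 had positive differences with all arrays and 2 without BRAF 2. For mast cells, basophils and eosinophils the sum over 17 markers was 994 to 1040 and 940 to 1310, and 9 of them lay below the 30th percentile on all 6 arrays. For T, B and NK cells the sum over 14 markers was 632 to 640 and 640 to 1110, with 1110 on BRAF 2, and 8 lay below that percentile. Of these marker genes, Ccr7 and Ngp passed the test, both lower in BRAF cells. The part of the other marker differences in the results below was not tested. In RNA of a whole sorted population, fewer cells of a type and less RNA per cell cannot be told apart.

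Across the 15365 genes tested, 80 were called at an adjusted p under 0.05 (0.521%), 51 higher (0.332%) and 29 lower (0.189%) in BRAF cells. At an unadjusted p under 0.05 there were 1022 genes (6.65%). The BRAF and WT arrays of all 80 called genes did not overlap, while over all genes tested every BRAF array lay above every WT array for 1074 (6.99%) and below for 1395 (9.08%). The increases were the larger changes: 16 genes were at least 4-fold higher, 31 were 2-fold to 4-fold higher, and 2 were at least 4-fold lower. The smallest change called was 0.82 on the log2 scale. Without BRAF 2, 103 genes were called (0.674% of 15279), 80 higher (0.524%) and 23 lower (0.151%), which held 72 of the 80.

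**Figure D1:**
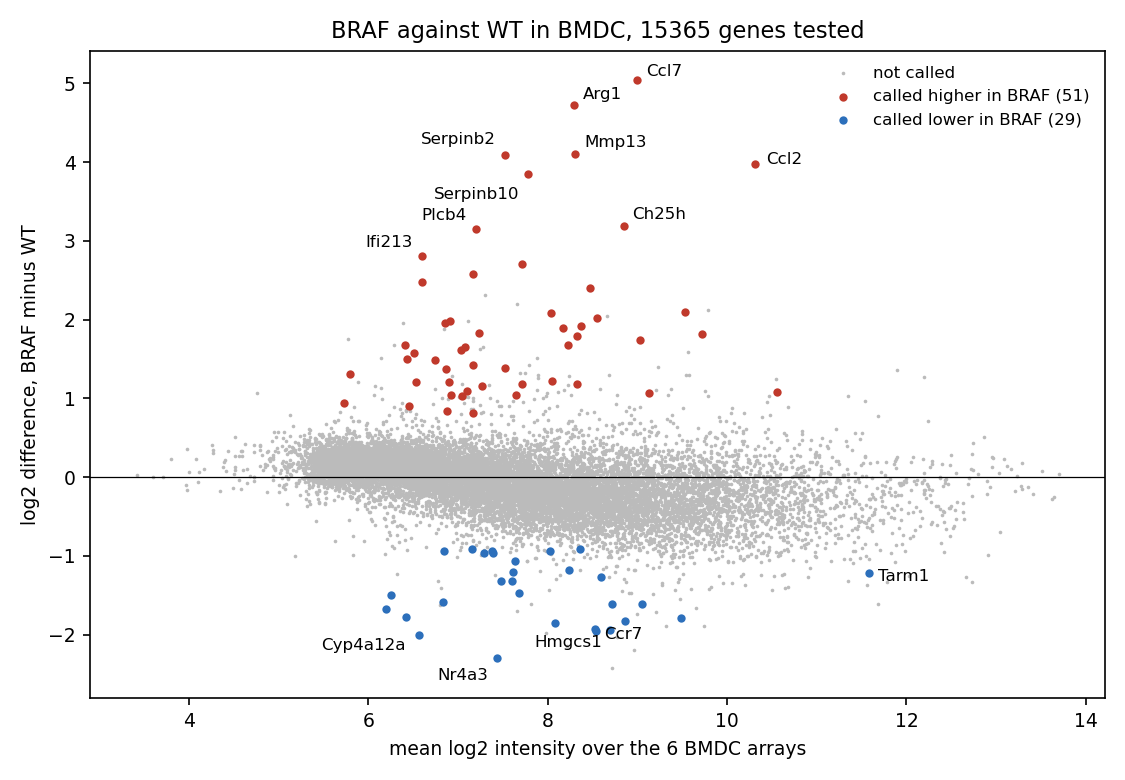
Log2 difference between BRAF and WT BMDC (y axis) against the mean log2 intensity over the 6 arrays (x axis), 1 point per gene, with the 51 genes called higher in red and the 29 called lower in blue. The called genes run from Nr4a3 at -2.29 to Ccl7 at 5.04.

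Ccl7 had the largest rise of all genes tested, and 3 other attractants of monocytes or neutrophils were called higher. Ccl7, a chemokine that draws monocytes out of marrow and into tissue through CCR2, read 6.48, 6.54 and 6.42 (log2) on the WT arrays and 11.85, 10.89 and 11.83 on the BRAF arrays. It rose by 5.04 ± 0.36 (SE), or 32.9-fold (adjusted p = 3.54e-06). Its neighbour Ccl2, which acts on the same receptor, read 8.12, 8.15 and 8.70 in WT and 12.28, 12.17 and 12.46 in BRAF cells, a rise of 3.98 ± 0.46 (adjusted p = 0.000705). The genotypes stood well apart for both genes, and BRAF 2 was the lowest BRAF array. Of the 9 CC chemokines on the list of monocyte attractants, these 2 were called and the median difference was 0.87 (1.2 without BRAF 2), beside 0.00 over all genes. Ccl12, another CCR2 ligand, differed by 1.76 ± 0.39 (adjusted p = 0.0699), and the inflammatory chemokines Ccl3 and Ccl4 by 1.36 ± 0.46 and 0.87 ± 0.31 (adjusted p = 0.482 and 0.532), with no overlap between genotypes for any of the 3. Ccl6 and Ccl9, at 12.71 and 12.01 in WT cells, differed by -0.01 ± 0.27 and -0.09 ± 0.29.

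Among 12 CXC chemokines, 2 were called higher and 1 lower, with a median of 0.56 (0.32 without BRAF 2). Cxcl3 and Ppbp, ligands of the neutrophil receptor CXCR2, rose. Cxcl3 went from 6.08, 6.19 and 6.42 in WT to 7.76, 7.5 and 8.26 in BRAF cells (1.61 ± 0.25, adjusted p = 0.00822), and Ppbp from a mean of 7.43 ± 0.35 to 9.22 ± 0.22 (SD, n = 3 each; adjusted p = 0.0185). Cxcl2, of the same group, read 6.46 to 6.71 in WT and 8.5 to 8.93 in BRAF cells. Its difference of 2.20 was not called (adjusted p = 0.444), with a standard error of 0.73 that pools the spread of all 18 arrays. Cxcl16, a membrane-bound chemokine that also takes up oxidised lipoprotein, fell by 1.83 ± 0.30, from 9.91, 9.67 and 9.75 to 8.40, 7.28 and 8.15 (adjusted p = 0.0108). The Cxcl3 call was lost without WT 1 or WT 2 (adjusted p up to 0.0619), that of Ppbp without BRAF 1, BRAF 3, WT 1 or WT 2 (up to 0.131) and that of Cxcl16 without any 1 of the WT arrays (up to 0.0798).

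Ccr7 was the only chemokine receptor of 16 tested to pass, with a list median of 0.06 whose sign changed under some alternatives. It read 9.53, 9.16 and 9.78 in WT and 7.5, 8.03 and 7.15 in BRAF cells. That is a fall of 1.93 ± 0.28 (adjusted p = 0.00464), 2.16 without BRAF 2, and the call held without each of the 6 BMDC arrays in turn. Ccr2, the receptor for Ccl2 and Ccl7, differed by -0.32 ± 0.31 from a WT mean of 11.49 (adjusted p = 0.748), and Ccr1 by 0.26 ± 0.46. Of the 31 genes listed for mature dendritic cells, Ccr7 was again the only call, with a median of -0.20. However, 13 lay lower on every BRAF array than on every WT array (9.08% over all genes tested). The chemokine Ccl22 read 10.16, 9.75 and 9.89 in WT and 8.08, 6.88 and 7.55 in BRAF cells (-2.43 ± 0.56, adjusted p = 0.0872). Pdcd1lg2, the inhibitory ligand PD-L2, went from a mean of 8.97 ± 0.20 to 6.99 ± 0.65 (SD, n = 3 each; -1.98 ± 0.42, adjusted p = 0.0513), and Fscn1, the actin bundler of dendrites, differed by -0.99 ± 0.29 (adjusted p = 0.313). The costimulatory genes Cd80, Cd86 and Cd40 differed by 0.21 ± 0.29, 0.61 ± 0.33 and -0.06 ± 0.24. The 31 genes thus held 1 call, 13 separated decreases and 10 positive differences.

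Nr4a3, an orphan nuclear receptor, had the largest called fall. Its values were 8.65, 8.46 and 8.65 in WT and 6.48, 6.29 and 6.11 in BRAF cells, a fall of 2.29 ± 0.29 (adjusted p = 0.0019) that held without each array. Its relatives Nr4a1 and Nr4a2 differed by -0.01 ± 0.36 and 0.52 ± 0.47, neither called, and the sign for Nr4a1 turned in 5 alternatives. None of the 10 MHC class II genes was called. Their median was -0.74, and -0.38 without BRAF 2. H2-Eb1, an antigen-presenting chain, read 11.94 to 12.07 in WT and 10.94, 9.84 and 11.26 in BRAF cells (adjusted p = 0.107, and 0.242 without BRAF 2). No gene of the 12 on the NF-kB list was called either (median -0.38), with Relb at -0.59 ± 0.20 and Nfkb2 at -0.69 ± 0.22 (adjusted p = 0.459 and 0.402).

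**Figure D2:**
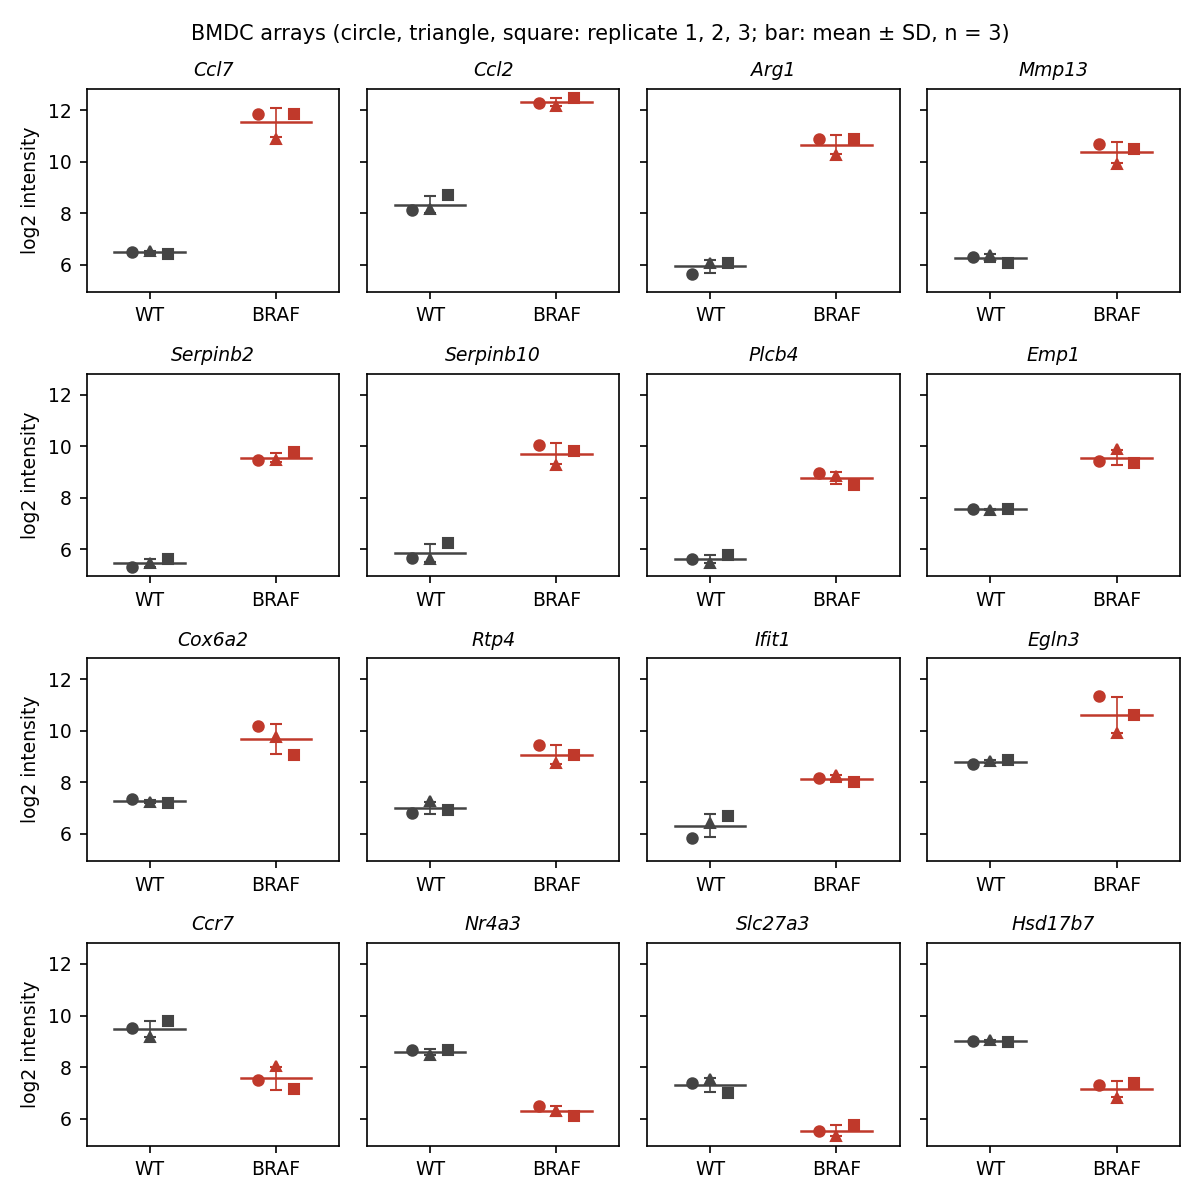
Log2 intensity of 16 called genes on each BMDC array, WT in grey and BRAF in red, with a circle, triangle and square for replicates 1, 2 and 3 and bars for the mean ± SD (n = 3). The genotypes do not overlap for any of the 16, and BRAF 2 (triangle) is the lowest BRAF array for Ccl7, Mmp13 and Egln3 and the highest for Emp1 and Ccr7.

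Genes for an arginase, a collagenase and serpins (serine protease inhibitors) were the others with changes above 10-fold. Arg1, the arginase that turns arginine into ornithine, read 5.65, 6.08 and 6.07 in WT and 10.89, 10.24 and 10.86 in BRAF cells, a 26.5-fold rise (4.73 ± 0.21, adjusted p = 1.16e-08). It was the only call among 10 arginine and polyamine genes, whose median was -0.20 (0.20 without BRAF 2). Nos2, which competes with arginase for arginine, differed by 0.67 ± 0.21 (adjusted p = 0.362). Mmp13, an interstitial collagenase, went from 6.31, 6.38 and 6.07 to 10.68, 9.90 and 10.50 (4.11 ± 0.53, adjusted p = 0.00225). It was the only call among 13 matrix metalloproteinases and their inhibitors, where Mmp9 read 6.39 to 6.49 in WT and 7.22 to 8.75 in BRAF cells (adjusted p = 0.737). Serpinb2, the inhibitor of the plasminogen activator urokinase, rose from 5.31, 5.47 and 5.64 to 9.47, 9.46 and 9.76, 17.0-fold (adjusted p = 1.24e-07). Serpinb10, the adjacent gene for a serpin of blood-forming cells, rose from 5.68, 5.64 and 6.25 to 10.04, 9.26 and 9.82, 14.4-fold (adjusted p = 0.00025). The WT values of Serpinb2 lay near the lower quartile of all probe sets on the WT arrays (5.37 to 5.42) and those of Arg1 and Serpinb10 not far above it. The files used here give no background level, so the size of these folds depends on a WT signal not shown to be above background. Urokinase itself, Plau, differed by 0.43 ± 0.25 and its receptor Plaur by -0.33 ± 0.52. The calls of Arg1, Mmp13, Serpinb2 and Serpinb10 held without each array, with the highest adjusted p at 0.0195 for Mmp13.

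Promoter windows from RefSeq (build GRCm38.p6, the 250 bases before the start of the transcript, written 5′ to 3′ on the gene's strand) are shown for genes in which a searched motif lay near the start; AP-1 was searched because ERK acts on it. Capitals mark the matches. Mmp13 (chr9:7272264-7272513, plus strand) holds TGACTCA at 35 to 29 bases before the start, Serpinb2 (chr1:107511173-107511422, plus strand) holds TGAATCA at 94 to 88, and Serpinb10 (chr1:107528753-107529002, plus strand) holds TGAATCA at 54 to 48. RefSeq lists 2 such windows for Serpinb2, of which 1 is shown. The letters TGAATCA match only the looser of the 2 AP-1 forms searched.
Mmp13: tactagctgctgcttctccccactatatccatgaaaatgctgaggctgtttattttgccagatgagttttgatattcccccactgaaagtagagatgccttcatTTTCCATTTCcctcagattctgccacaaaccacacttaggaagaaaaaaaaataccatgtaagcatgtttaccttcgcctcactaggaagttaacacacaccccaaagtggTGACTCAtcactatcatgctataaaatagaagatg
Serpinb2: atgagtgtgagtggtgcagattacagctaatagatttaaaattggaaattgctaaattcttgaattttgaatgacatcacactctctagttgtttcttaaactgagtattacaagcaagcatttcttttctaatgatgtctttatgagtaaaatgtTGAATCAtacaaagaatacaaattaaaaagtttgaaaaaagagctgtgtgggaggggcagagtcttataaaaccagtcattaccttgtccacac
Serpinb10: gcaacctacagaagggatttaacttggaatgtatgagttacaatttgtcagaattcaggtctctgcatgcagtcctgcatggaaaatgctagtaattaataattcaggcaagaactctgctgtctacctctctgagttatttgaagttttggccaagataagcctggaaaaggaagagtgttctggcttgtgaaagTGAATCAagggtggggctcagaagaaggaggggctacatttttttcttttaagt

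The AP-1 letters were searched in a loose form, TGANTCA, with any middle base and on either strand. They were found in 13 of the 40 called-higher genes with a window (32.5%) and in 1 of 20 called-lower genes (5.0%). Over all genes tested the count was 737 of 12142 (6.07%). The 13 were Emp1, Glrp1, Hdac9, Ifi203, Ifi209, Ifit3, Mmp13, Ppbp, Serpinb10, Serpinb2, Sipa1l2, Slfn4 and Upp1. With the stricter letters TGACTCA, a choice made after the data were seen, the counts were 6 of 40 (15%), 1 of 20 and 527 of 12142 (4.34%). The 6 were Emp1, Glrp1, Ifi209, Mmp13, Slfn4 and Upp1. Serpinb2 and Serpinb10 matched the loose form only. A match is a run of letters and does not show that a factor binds there, and some of these genes are neighbours or paralogs.

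No gene of the ERK pathway itself or of its feedback loop was called. The 10 genes for RAF, MEK and ERK kinases and their adaptors had a median of -0.04, and 0.09 without BRAF 2. Of 11 feedback inhibitors that ERK induces, 9 had positive differences with a median of 0.32, and 0.41 without BRAF 2. Spry1, a Sprouty inhibitor of RAS signalling, read 7.09, 7.15 and 7.01 in WT and 7.66, 7.56 and 7.80 in BRAF cells, a difference of 0.59 ± 0.18 (adjusted p = 0.364). Dusp6, the phosphatase that acts on ERK, read 8.23, 8.59 and 8.55 in WT and 9.29, 8.42 and 10.17 in BRAF cells, so BRAF 2 lay within the WT range (0.84 ± 0.38, adjusted p = 0.727). Dusp5 differed by -0.32 ± 0.25. At this replicate number such p-values do not show that the genes were the same in both genotypes.

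Of 19 transcription and growth factor genes that ERK can induce, 2 were called, both higher, with a median of 0.31. Etv1, an ETS factor stabilised by ERK signalling in some tumours, rose from 7.42, 7.35 and 7.39 to 9.52, 8.79 and 8.89 (1.68 ± 0.31, adjusted p = 0.023). Fosl1, which encodes the AP-1 protein FRA-1, rose from 5.92, 6.01 and 6.07 to 6.92, 6.93 and 6.89 (0.91 ± 0.18, adjusted p = 0.0334). Fosl1 was the only call among 12 AP-1 genes, where Fos, Junb and Jund differed by -0.16, -0.24 and -0.27. Leaving out any array other than BRAF 2 ended the calls of Etv1 and Fosl1 (adjusted p up to 0.139 and 0.218). Vegfa, the vascular growth factor, was at 8.01 to 8.05 in WT and 8.74 to 9.74 in BRAF cells (adjusted p = 0.0691, and 0.0184 without BRAF 2). Etv5 read 7.61 on BRAF 2, below the WT arrays. It was not called with all arrays (adjusted p = 0.737) but was without BRAF 2 (0.99, adjusted p = 0.0403). With array weights it was called too, as were 1656 of the 15365 genes tested. The immediate early genes Egr1 and Egr2 differed by 0.00 ± 0.25 and -0.59 ± 0.47.

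Interferon-induced genes were the largest group of called increases. Of 27 listed, 5 rose, none fell and 25 had positive differences. In all, 16 lay higher on every BRAF array than on every WT array (6.99% over all genes tested). The median of the 27 was 0.60, and 0.99 without BRAF 2, when 8 were called higher. Rtp4, an interferon-induced receptor chaperone, rose from 6.81, 7.27 and 6.92 to 9.45, 8.75 and 9.05 (2.08 ± 0.28, adjusted p = 0.00289). Oas2, which makes the activator of the antiviral nuclease RNase L, rose by 1.92 ± 0.27 (adjusted p = 0.00404) and Ifit1, which blocks translation of viral RNA, by 1.83 ± 0.27 (adjusted p = 0.00506). The calls of these 3 genes held without each array. Ifit2 and Ifit3, of the same gene cluster as Ifit1, rose by 1.5 ± 0.30 and 1.58 ± 0.30 (adjusted p = 0.0352 and 0.0274), with calls lost without any 1 of the 6 arrays for Ifit2 and without each array other than BRAF 2 for Ifit3 (up to 0.247 and 0.18). Rsad2, which encodes viperin, read 8.76 and 8.07 on BRAF 1 and BRAF 3 but 6.52 on BRAF 2, against 5.45 to 6.28 in WT. It was not called with all arrays (adjusted p = 0.0772) but was without BRAF 2 (2.51, adjusted p = 0.00214), as were Irf7, Oasl2 and Cxcl10 (1.80, 1.83 and 1.63). All 4 were also called with array weights, which give BRAF 2 a weight of 0.109. That setting called 1656 of the 15365 genes tested and plays down the same array, so it is not separate support. Mx1, Stat2 and Ifi35 differed by 0.19 ± 0.36, -0.20 ± 0.40 and -0.36 ± 0.28.

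The Ifi200 genes, a cluster of interferon-induced DNA-sensing and chromatin proteins, had 4 of 6 tested members called higher and a median of 1.08. Ifi213 read 5.10, 5.49 and 4.99 in WT and 8.03, 9.07 and 6.90 in BRAF cells (2.81 ± 0.51, adjusted p = 0.0219). Ifi205 rose from 7.35, 7.03 and 7.27 to 9.03, 9.86 and 8.45 (1.90 ± 0.32, adjusted p = 0.0131). BRAF 2 was the highest BRAF array for both. The WT values of Ifi213 lay around or below the lower quartile of the WT arrays (5.37 to 5.42), so the size of its difference has the same limit. Ifi203 and Ifi209 rose by 1.08 ± 0.17 and 1.07 ± 0.20 (adjusted p = 0.00822 and 0.0274), and Aim2, the inflammasome sensor of the cluster, differed by 0.28 ± 0.20. The Ifi213 call was lost without BRAF 2 (2.27, adjusted p = 0.0629), and those of the 4 genes were lost without 1 to 5 of the arrays, up to adjusted p = 0.201. Members of this cluster are similar in sequence, so the probe sets may read more than 1 of them, which was not tested.

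An interferon element, searched as GAAA, any 2 bases and GAAA on either strand, lay in the windows of 8 of 40 called-higher genes (20%), 0 of 20 called-lower genes and 381 of 12142 genes tested (3.14%). It lay in 9 of 19 interferon response genes with a window (47.4%). The 8 were Ifi203, Ifi205, Ifi213, Ifit1, Ifit3, Mmp13, Phf11a and Slfn8. Ifit1 (chr19:34640639-34640888, plus strand) holds 2 matches, at 104 to 95 and at 85 to 76 bases before the start, and Ifi205 (chr1:174031756-174032005, minus strand) holds 1 at 134 to 125. These windows are shown as examples of called interferon genes, with the matches in capitals, as is the match at 146 to 137 in the Mmp13 window above.
Ifit1: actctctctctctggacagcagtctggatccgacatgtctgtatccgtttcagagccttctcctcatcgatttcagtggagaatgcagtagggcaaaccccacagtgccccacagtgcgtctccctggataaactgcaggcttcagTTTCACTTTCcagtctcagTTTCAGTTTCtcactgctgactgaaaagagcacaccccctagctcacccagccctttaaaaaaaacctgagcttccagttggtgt
Ifi205: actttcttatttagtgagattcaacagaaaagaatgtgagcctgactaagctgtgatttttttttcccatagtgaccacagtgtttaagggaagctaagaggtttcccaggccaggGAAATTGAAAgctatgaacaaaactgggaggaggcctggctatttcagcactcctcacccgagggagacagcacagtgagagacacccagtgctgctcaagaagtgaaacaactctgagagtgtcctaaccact

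Cholesterol synthesis was the largest group of called decreases. Of the 17 genes tested, 10 fell. All 17 lay lower on every BRAF array than on every WT array (9.08% over all genes tested). The median was -1.62, and it was -1.48 after quantile normalization, -1.70 after median centring and -1.36 without BRAF 2, when 8 were called lower. The calls run along the pathway. Hmgcs1, which makes HMG-CoA, the substrate of the rate-limiting step, fell from 9.50, 9.78 and 9.70 to 7.78, 7.34 and 8.04 (1.94 ± 0.30 lower, adjusted p = 0.008). The mevalonate enzymes Mvk and Mvd had differences of -0.92 ± 0.17 and -1.27 ± 0.23 (adjusted p = 0.0219 each). Lss, which closes the sterol ring, and Cyp51, which removes a methyl group from it, had differences of -1.47 ± 0.28 and -1.96 ± 0.39 (adjusted p = 0.0261 and 0.0354). Cyp51 was tight in both genotypes, at 9.49, 9.46 and 9.59 in WT and 7.58, 7.49 and 7.6 in BRAF cells.

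The later sterol enzymes Tm7sf2, Nsdhl, Hsd17b7, Sc5d and Dhcr7 also fell, with differences of -0.94, -1.79, -1.86, -1.62 and -1.18. Hsd17b7 read 9.02, 9.04 and 8.97 in WT and 7.29, 6.80 and 7.37 in BRAF cells (adjusted p = 0.00375), and its call held without each array. Nsdhl went from 10.61, 10.30 and 10.24 to 9.01, 7.77 and 9.0 (adjusted p = 0.0174). The uncalled genes Idi1, Fdft1, Msmo1 and Sqle had differences of -2.03 ± 0.54, -1.89 ± 0.40, -1.89 ± 0.42 and -1.73 ± 0.41 (adjusted p = 0.196, 0.0521, 0.0691 and 0.0959). Lss and Cyp51 were not called without BRAF 2 (adjusted p = 0.0781 and 0.0963). The calls other than Hsd17b7 were lost without between 1 and 6 of the arrays: Hmgcs1 without WT 2 (adjusted p = 0.0573), Nsdhl and Sc5d without any 1 WT array (up to 0.125), Dhcr7, Mvd and Tm7sf2 without BRAF 1 or any 1 WT array (up to 0.164), Mvk without each array other than BRAF 2 (up to 0.148), Lss without BRAF 1, BRAF 2, WT 1 or WT 2, and Cyp51 without any 1 array (up to 0.178 each).

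**Figure D3:**
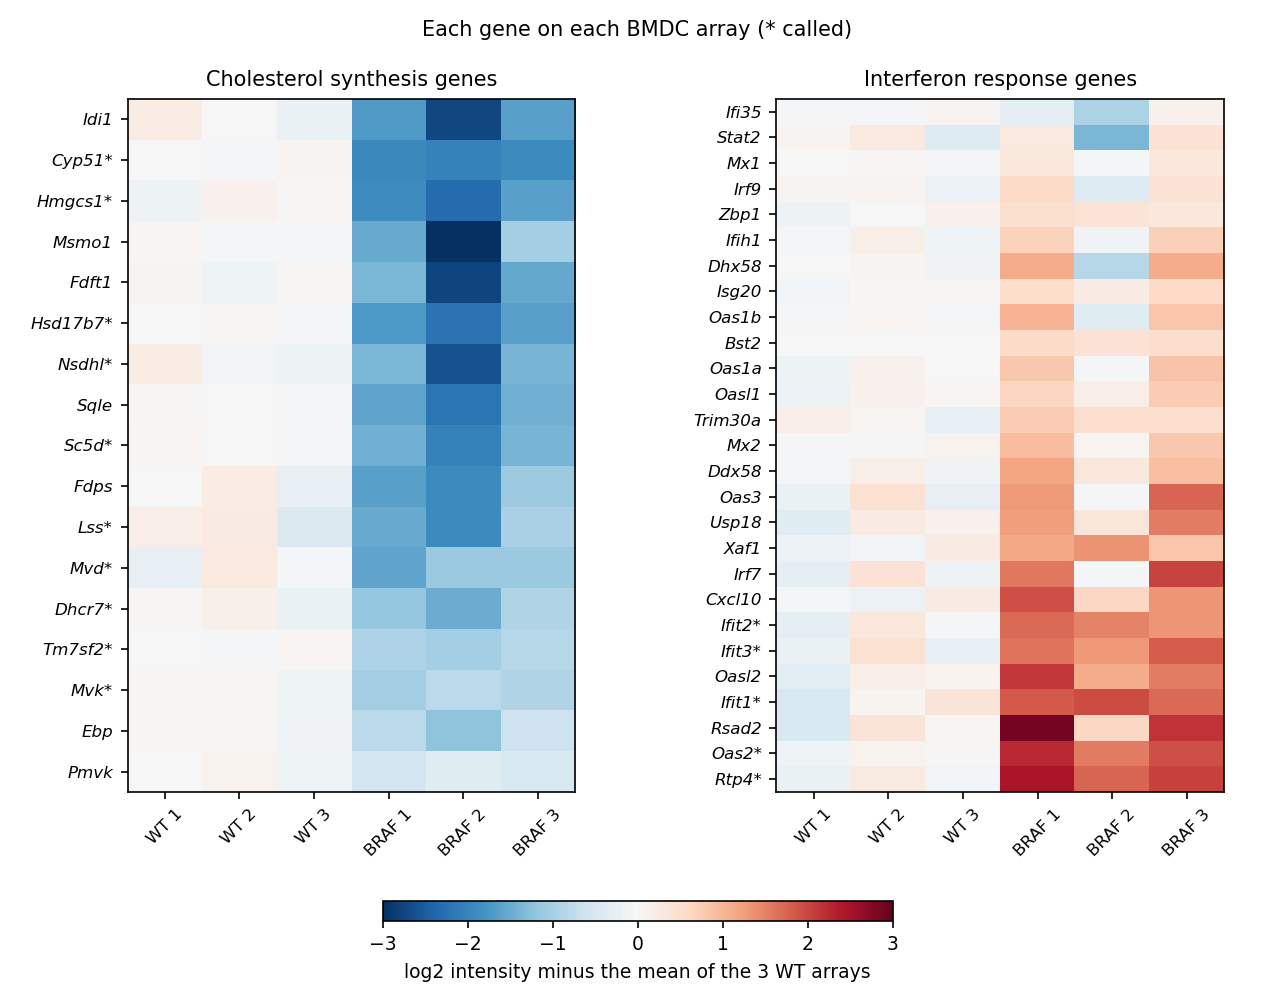
Log2 intensity of the 17 cholesterol synthesis genes and the 27 interferon response genes on each BMDC array, minus the mean of the 3 WT arrays (blue lower, red higher; an asterisk marks called genes). Every BRAF array is blue for the cholesterol genes, and BRAF 2 is paler or blue for several interferon genes, such as Rsad2 and Irf7.

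Genes that regulate or use sterols were mixed. Insig1, which holds the sterol-sensing complex in the endoplasmic reticulum and is itself a sterol-regulated gene, fell from 9.93, 9.96 and 9.70 to 8.58, 7.39 and 8.77 (1.61 ± 0.31 lower, adjusted p = 0.0267). It was the only call among 10 genes of sterol-regulated transcription and uptake (median -0.36, and -0.15 without BRAF 2), and was lost without BRAF 1 or any WT array (up to 0.155). Srebf2, the transcription factor for cholesterol genes, differed by -1.08 ± 0.41 (adjusted p = 0.59). Ch25h, which makes 25-hydroxycholesterol, rose from 7.34, 7.19 and 7.22 to 11.09, 9.22 and 11.02 (3.19 ± 0.64, adjusted p = 0.0337), with BRAF 2 far below the other BRAF arrays. Leaving out any array other than BRAF 2 ended this call (up to 0.194). It was the only call among 10 sterol efflux genes, in which Abca1 differed by -0.02 ± 0.53 and Abcg1 by -0.57 ± 0.39, the latter 0.08 without BRAF 2. None of 13 fatty acid synthesis genes was called, although 12 had negative differences (median -0.85, and -0.48 without BRAF 2), with Acss2 at -1.09 ± 0.24 and Elovl6 at -1.16 ± 0.28 (adjusted p = 0.0643 and 0.0993).

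Letters of a sterol element, TCACNCCAC on either strand, were found in the window of 1 of 14 cholesterol synthesis genes with a window, Hmgcs1 (chr13:119690101-119690350, plus strand), at 137 to 129 bases before the start, and in 149 of 12142 genes tested (1.23%). The stricter form, an A followed by TCACCCCAC, was in 0 of the 14 and in 8 of 12142 (0.0659%). The Hmgcs1 window is shown as the first enzyme of the group.
Hmgcs1: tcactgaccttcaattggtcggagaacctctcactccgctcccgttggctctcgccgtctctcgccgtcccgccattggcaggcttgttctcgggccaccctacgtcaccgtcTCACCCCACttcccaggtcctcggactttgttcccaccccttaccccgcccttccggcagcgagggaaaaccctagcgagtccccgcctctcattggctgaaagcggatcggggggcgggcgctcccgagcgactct

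Further single genes held without each array. Plcb4, a phospholipase C that acts below G protein coupled receptors, rose from 5.63, 5.47 and 5.77 to 8.95, 8.86 and 8.51 (3.15 ± 0.24, adjusted p = 5.57e-06). Its WT values lay close to the lower quartile of the WT arrays (5.37 to 5.42), so the size of its rise has the same limit as that of Arg1. Emp1, a small membrane protein, rose from 7.58, 7.51 and 7.55 to 9.41, 9.91 and 9.36 (2.02 ± 0.19, adjusted p = 0.00011). Cox6a2, the form of a cytochrome oxidase subunit best known from heart and skeletal muscle, rose from 7.34, 7.25 and 7.20 to 10.20, 9.77 and 9.05 (2.41 ± 0.34, adjusted p = 0.00404). Tmem171, a transmembrane protein, rose by 1.39 ± 0.19 (adjusted p = 0.00375). On the other side, Slc27a3, of the fatty acid transport protein family, went from 7.39, 7.52 and 7.01 to 5.52, 5.32 and 5.75 (-1.78 ± 0.22, adjusted p = 0.00147). Cyp4a12a, a fatty acid hydroxylase, went from 8.02, 7.37 and 7.30 to 5.55, 5.39 and 5.74 (-2.0 ± 0.28, adjusted p = 0.00404), and its neighbour Cyp4a12b, a near copy whose probes may overlap with it, had a difference of -1.49 ± 0.30. The BRAF values of Slc27a3 and Cyp4a12a ran from 5.32 to 5.75, close to the lower quartile of all probe sets on these arrays (5.36 to 5.89).

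Other called increases depended on which arrays were included. Ifitm6, a relative of the antiviral membrane proteins, rose by 2.71 ± 0.44, with 9.44, 8.18 and 9.58 on the BRAF arrays against 6.33 to 6.40 in WT. Rgs1, which dampens chemokine receptor signalling, rose from 5.91, 5.56 and 6.18 to 8.39, 8.36 and 8.64 (2.58 ± 0.40, adjusted p = 0.00763). Cdh17, a cadherin of gut epithelium, rose by 2.48 ± 0.39 and Slfn1, a Schlafen gene of immune cells, by 2.09 ± 0.36, beside its neighbours Slfn4 and Slfn8 (1.66 ± 0.30 and 1.04 ± 0.19). Coagulation factor F5 rose by 1.98 ± 0.33 and by 2.50 without BRAF 2, where it read 6.87 against 8.52 and 8.32, and Raet1d, a ligand of the natural killer receptor NKG2D, rose by 1.96 ± 0.34. The calls of these genes were lost without WT 2 in the case of Rgs1 (adjusted p = 0.0573), WT 2 or WT 3 for Cdh17 (up to 0.0573), any WT array for Raet1d (up to 0.0922), BRAF 1, WT 1 or WT 2 for Slfn1 (up to 0.114), BRAF 1 or any WT array for Ifitm6 (up to 0.063), and each array except BRAF 2 for F5, Slfn4 and Slfn8 (up to 0.0674, 0.138 and 0.172).

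Stress and oxygen-response genes held a few calls. Egln3, a prolyl hydroxylase that tags hypoxia-inducible factors and is induced by them, rose from 8.73, 8.83 and 8.86 to 11.34, 9.93 and 10.61 (1.82 ± 0.27, adjusted p = 0.00692) and kept its call without each array. It was the only call among 15 hypoxia genes, of which 14 had positive differences (median 0.47, and 0.70 without BRAF 2, when Vegfa and Ero1a were called too). Bnip3 and Ankrd37, of the same list, differed by 1.25 ± 0.31 and 1.00 ± 0.23 (adjusted p = 0.118 and 0.0837). None of 19 glycolysis genes was called, and their median changed from -0.25 to 0.15 without BRAF 2. Trib3 and Chac1, induced by ATF4 when amino acids are short, rose by 0.84 ± 0.16 and 1.18 ± 0.23 (adjusted p = 0.023 and 0.0331). The amino acid gene Asns read 8.92, 8.73 and 8.52 in WT and 11.36, 9.86 and 11.33 in BRAF cells, and was called without BRAF 2 (2.62, adjusted p = 0.0416) but not with all arrays (adjusted p = 0.122). The chaperone genes Hspa5 and Hsp90b1 of that list of 15 differed by -0.64 ± 0.33 and -0.39 ± 0.29. Leaving out any array other than BRAF 2 ended the Trib3 and Chac1 calls (up to 0.153 and 0.178).

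Some lists had small differences of 1 sign and no call. All 31 cell cycle genes had negative differences (median -0.49, and -0.35 without BRAF 2). For 20 of them every BRAF array lay below every WT array, as for 9.08% of all genes tested. None of the 31 had an unadjusted p under 0.05, in a test that pools the spread of all 18 arrays. All 23 oxidative phosphorylation and TCA cycle genes were negative too (median -0.66, and -0.37 without BRAF 2, when 22 were negative). The mean log2 level of these lists was 8.77 and 8.68 on BRAF 2 and at least 9.19 and 9.42 on the other 5 arrays, and the part of that array's low reading in the differences was not tested. Of 20 inflammatory cytokine genes 17 had positive differences (median 0.21) and none was called. Without BRAF 2, 13 were positive and 7 negative (median 0.20), again with no call. Il6 read 4.19, 4.23 and 4.27 in WT and 5.36, 5.29 and 5.22 in BRAF cells, a wide gap at a level below the lower quartile of every BMDC array (1.06 ± 0.42, adjusted p = 0.643). Il1rn, the interleukin 1 receptor antagonist, differed by 0.89 ± 0.33 and Tnf by 0.15 ± 0.37. Bcl2l1, whose product BCL-XL protects cells from apoptosis, differed by 0.58 ± 0.22 (adjusted p = 0.603), and of the 14 BCL2 family genes none was called. In all, 19 of the 47 lists held a called gene and 28 held none, and 42 of the 80 called genes were on no list.

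**Figure D4:**
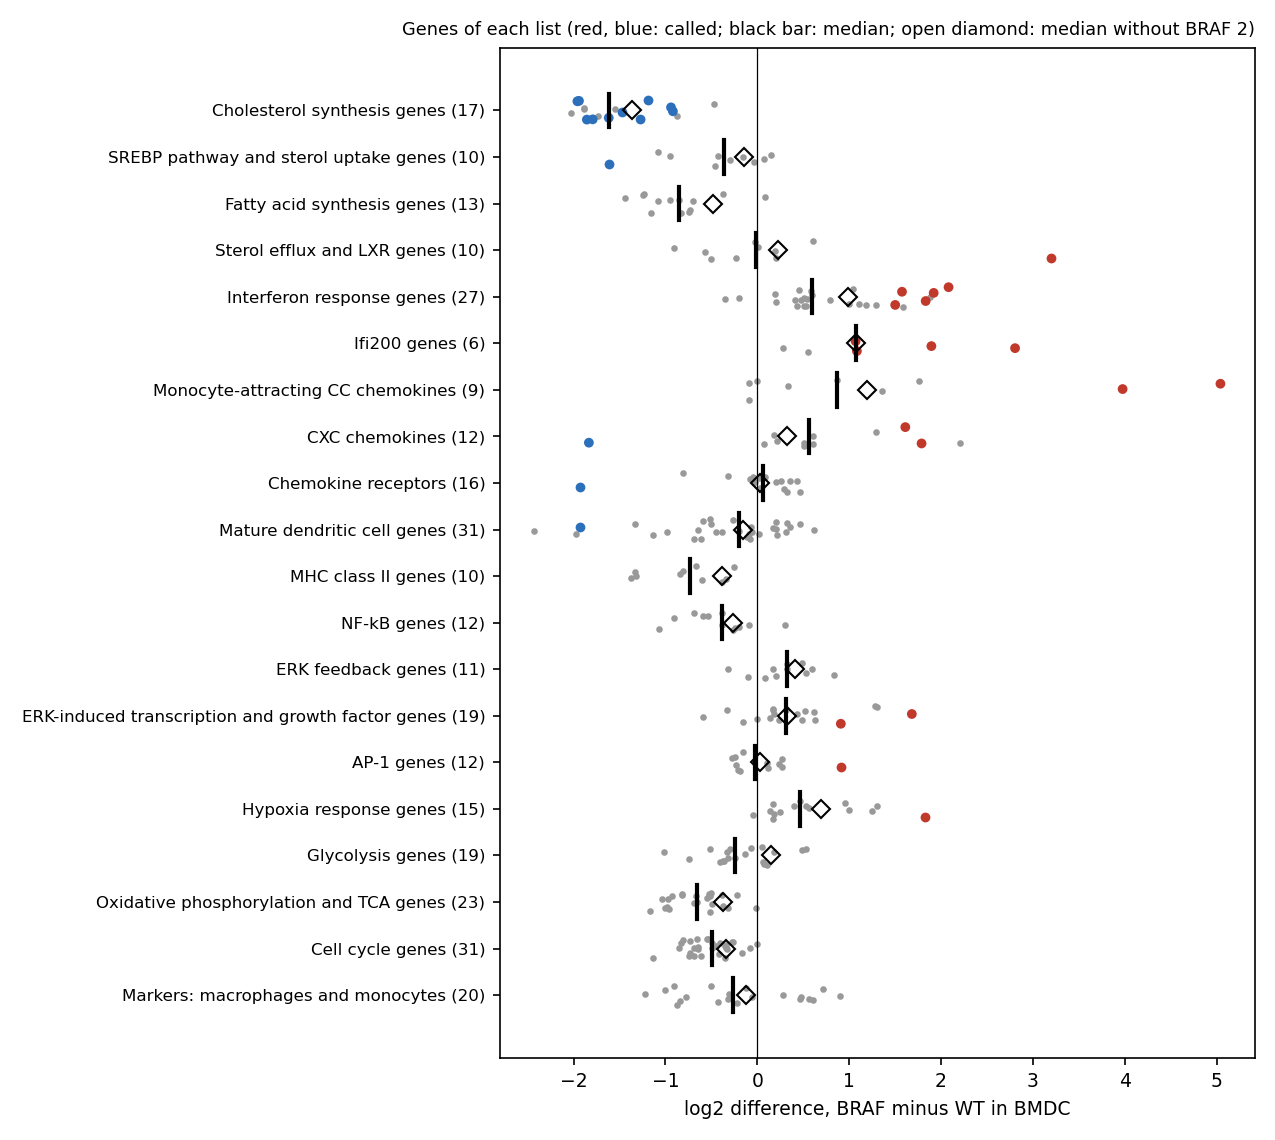
Log2 difference between BRAF and WT BMDC (x axis) for each gene of 20 lists, with called genes in red or blue, a black bar at the list's median and an open diamond at the median without BRAF 2. Cholesterol synthesis lies to the left and interferon response to the right with or without BRAF 2, while the median of glycolysis genes changes sign.

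The remaining called genes had changes between 1.76-fold (Sipa1l2) and 3.35-fold (Peak1). Those higher were the pentraxin Ptx3, the growth and scaffold genes Peak1 and Sipa1l2, the cell adhesion genes Flrt2, Pcdh7, Edil3 and Tjp1, the transcription regulators Hivep2, Hdac9, Dach1 and Zfp618, the GTPase regulator Srgap3, the uridine phosphorylase Upp1, and Zranb3, Phf11a and Glrp1. Those lower were Tarm1, an activating receptor of myeloid cells, the neutrophil granule gene Ngp, the ubiquitin ligase Marchf3, the zinc transporter Slc39a4, the steroid dehydrogenase Hsd11b2, the receptor Gprc5c, and Vat1l, Nanos1, Pknox2, Stap2, Ccdc85a and Galnt9. Tarm1 read 12.30, 12.12 and 12.16 in WT and 11.51, 10.47 and 10.95 in BRAF cells (-1.22 ± 0.26, adjusted p = 0.0498, and 0.127 without BRAF 2). Each of these calls was lost when 1 or more of the 6 arrays was left out, with adjusted p up to 0.272.

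Leaving out 1 array at a time kept 19 of the 80 calls in all 6 cases, 14 higher and 5 lower. These were Arg1, Ccl2, Ccl7, Cox6a2, Egln3, Emp1, Ifit1, Mmp13, Oas2, Plcb4, Rtp4, Serpinb10, Serpinb2 and Tmem171 among the increases and Ccr7, Cyp4a12a, Hsd17b7, Nr4a3 and Slc27a3 among the decreases. Without BRAF 2, 8 calls were lost: Cyp51, Cyp4a12b, Lss, Nanos1, Tarm1, Stap2, Ifit2 and Ifi213. The other arrays cost more calls, 49 for BRAF 1, 34 for BRAF 3, and 56, 60 and 50 for WT 1, WT 2 and WT 3. None of the 80 log2 differences changed sign or moved by over 1.5 times in these fits.

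By the gene order of RefSeq (GRCm38.p6), 14 pairs of called genes lay within 5 protein-coding genes of each other, covering 19 of the 80 genes, and all 14 pairs moved in 1 direction. They were Ccl2 with Ccl7, Ppbp with Cxcl3, Serpinb2 with Serpinb10, Cyp4a12a with Cyp4a12b, Ifi203 with Ifi205, Ifi209 with Ifi213, the Slfn1, Slfn4 and Slfn8 genes, and Ifit1, Ifit2 and Ifit3 with the unrelated Ch25h nearby. Most are families of similar sequence, and cross-reading between their probe sets was not tested.

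The same contrast in the liver population and the CD11b+ and CD103+ lung populations was used to test whether changes differed between BMDC and these populations, which also differ in age and in having grown in the animal. The BMDC difference minus the mean of the other 3 was called for 20 genes (0.13%), 16 higher (0.104%) and 4 lower (0.026%), of which 17 were among the 80. Serpinb2 and Arg1 had the smallest p of that test. Serpinb2 differed between genotypes by 4.09 in BMDC and by -0.04, 0.99 and -0.17 in the liver, lung CD11b+ and lung CD103+ populations (difference of differences 3.83 ± 0.28, adjusted p = 8.88e-06). Arg1, called also in lung CD11b+ cells at 2.37 (adjusted p = 0.00141), had 0.61 in liver and 0.86 in lung CD103+ cells (3.45 ± 0.26, adjusted p = 8.88e-06). Ccl7 had -0.11, 0.16 and 0.69 there (4.80 ± 0.45, adjusted p = 0.000109), and Serpinb10 had -0.71, -0.42 and -1.29 (4.66 ± 0.49, adjusted p = 0.000439). For Mmp13 the values were -1.55, -0.55 and 1.36 (4.35 ± 0.65, adjusted p = 0.0152).

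The called differences of Rtp4 and Ifi203 had the opposite sign in liver. Of the 2 WT arrays of liver, replicate 3 had a log2 interquartile range of 1.92, near that of BRAF 2 (1.90). Its part in the liver values was not tested. For Ifi203 the lung values are not given here, so its sign is not shown to be particular to liver. Rtp4 had -1.79 in liver (adjusted p = 0.049), and 0.20 and 0.98 in the CD11b+ and CD103+ cells of lung, against 2.08 in BMDC (difference 2.29 ± 0.34, adjusted p = 0.0152), and Ifi203 had -1.12 in liver (adjusted p = 0.0477) against 1.08 in BMDC (1.72 ± 0.21, adjusted p = 0.00193). Ngp, lower in BMDC, had 1.12, 0.64 and -0.06 in the other populations (-2.16 ± 0.33, adjusted p = 0.0152). Of the 51 genes called higher in BMDC, 18, 38 and 33 were positive in the liver, lung CD11b+ and lung CD103+ populations, where 56.3%, 50.5% and 35.0% of all genes tested were positive. Of the 29 called lower, 23, 20 and 17 were negative there. That share was above the share of all genes in the liver and lung CD11b+ populations, but not in lung CD103+ cells. Ccr7 showed no called difference between BMDC and the rest (0.19 ± 0.34, adjusted p = 0.812). Its values were -1.22 in liver, and -3.11 and -2.03 in the CD11b+ and CD103+ cells of lung. Emp1 was called in BMDC, liver (1.76) and lung CD103+ cells (1.52), and Raet1d had 1.42, 2.87 and 2.04 outside BMDC (adjusted p = 0.184, 0.00715 and 0.0926). For the cholesterol genes, only Hsd17b7 had a called difference from the other populations (-1.78 ± 0.31, adjusted p = 0.0375), and Cyp51 had -1.73, -0.93 and -0.16 there.

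**Figure D5:**
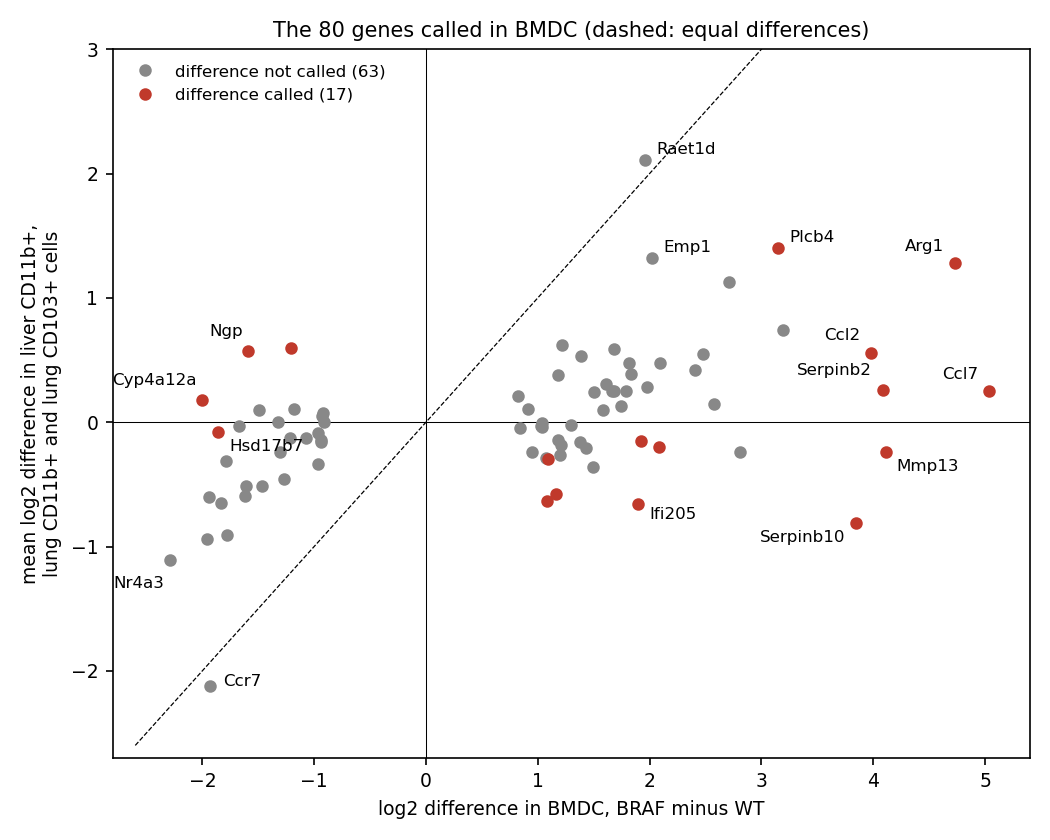
For each of the 80 genes called in BMDC, the log2 difference between BRAF and WT in BMDC (x axis) and the mean of the differences in the other 3 populations (y axis), with the 17 whose difference of differences was called in red and the dashed line at equal values. Ccl7, Serpinb2, Mmp13 and Serpinb10 lie far to the right of the line, and Ccr7 and Raet1d lie close to it.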

How the data were processed

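The authors deposited 1 table of linear-scale probe set intensity values for 18 arrays, used here as deposited; their background correction, normalization and array build are not given in the sources used here. Of 24922 probe sets, 21425 carried 1 gene symbol, 1399 several and 2098 none. Values were taken to log2. Of the probe sets of a gene, the one with the highest mean was kept (921 of 19752 genes had more than 1), and genes above the 30th percentile of an array on at least 2 arrays were tested (15365). Linear models with a mean for each of 8 groups were fitted to all 18 arrays with limma 3.58.1 in R 4.3.3 (10 residual and 4.83 prior degrees of freedom), with Benjamini-Hochberg adjustment over all genes tested. Adjusted p-values in the text are limma's, "called" means an adjusted p under 0.05, and differences are given ± SE. On simulated arrays of this comparison, 52% of genes changed by 1 on the log2 scale and 91% of those changed by 2 were recovered, and 3.38% of calls were false. The simulated noise was independent between genes and equal on every array, without the narrow range of BRAF 2. These rates may therefore not hold for the real arrays.

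The 47 gene lists, the members named and the tests were chosen with earlier results of these data known. The genes named were Braf, Itgax, Itgam, Ccr7 and Bcl2l1, up to 20 non-overlapping called genes each way with the largest difference, called list members, a few uncalled genes with small p per list, and the 8 genes whose difference between populations had the smallest p. Further list and marker genes given as values were picked after their values were seen. RefSeq promoter windows matched 12142 of the genes tested. The alternatives were other normalizations, filters, probe set rules, variance settings, array weights, sample sets and a replicate block. Tables were made with Python 3.11.15, pandas 2.3.3 and numpy 2.4.6, and plots with matplotlib 3.10.9.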

Additional observations from a re-analysis of the deposited data

Results flagged for a closer look

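For 15 of the genes named, the genotype difference in BMDC differed from the mean of the differences in the liver and the 2 lung populations by a limma contrast (log2, BMDC minus the others). Serine protease inhibitor, arginine and matrix genes were among them: Serpinb2 at 3.83 and Arg1 at 3.45 (adjusted p = 8.88e-06 each), Serpinb10 at 4.66 (0.000439) and Mmp13 at 4.35 (0.0152). The chemokines Ccl7 and Ccl2 were at 4.80 and 3.41 (adjusted p = 0.000109 and 0.0209). The interferon-induced genes Ifi203, Ifi205, Rtp4 and Oas2 were at 1.72, 2.56, 2.29 and 2.07 (adjusted p = 0.00193, 0.0152, 0.0152 and 0.0209). Plcb4 was at 1.75 (adjusted p = 0.0227). That is smaller than its rise in BMDC, so its mean difference in the other populations was also a rise. The genes lower in BMDC were Ngp at -2.16, Cyp4a12a at -2.18, the receptor gene Gprc5c at -1.81 and the sterol enzyme gene Hsd17b7 at -1.78 (adjusted p = 0.0152, 0.0203, 0.0209 and 0.0375). Culture, the age of the mice and the population cannot be told apart in this contrast.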

How the results depend on the processing

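All 80 called genes kept the sign of their difference wherever they were tested. The 80 calls became 1656 with array weights, which gave BRAF 2 a weight of 0.109, 44 with only the 6 BMDC arrays (33 of the 80 kept) and 20 to 103 when 1 BMDC array was left out. The 51 higher calls became 31 after median centring, 902 with array weights and 29 with only the 6 BMDC arrays. Without the 2 arrays of narrowest spread, BRAF 2 and WT replicate 3 of liver, they became 79. With 1 array left out they became 15 to 80. The 29 lower calls became 754 with array weights, 15 with only the 6 arrays and 5 to 27 with 1 array left out. The cause was not tested, beyond the fewer arrays of some fits. The 20 genes called for the difference between BMDC and the other populations became 33 after quantile normalization, 292 with array weights, 51 without the 2 narrowest arrays and 5 to 41 with 1 array left out; that contrast could not be run on the 6 BMDC arrays alone.

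With a replicate block, 52 genes were called (35 higher and 17 lower, all among the 80) and 13 for the difference between populations. Same-numbered arrays had correlations of 0.469, -0.231 and -0.399 between their deviations from the group means. With so few arrays per group, the deviations within a group depend on each other. These correlations therefore cannot show whether the numbers pair the samples, which the labels do not state.

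Some uncalled genes changed sign. Without the 2 narrowest arrays, Abcg1 was at 0.08, Itgax at 0.10, Nr4a1 at 0.02 and Prf1 at -0.02; Braf was at -0.04 after median centring and Nr4a1 at 0.00 with array weights. With 1 BMDC array left out, Abcg1 ran from -1.03 to 0.08, Braf from -0.10 to 0.19, Itgax from -0.66 to 0.10, Nr4a1 from -0.09 to 0.07 and Prf1 from -0.02 to 0.38. The medians of 17 of the 47 lists changed sign under some alternative. The main limits are 3 arrays per genotype, 1 of them narrow in range, and unknown normalization by the authors.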
